A study of Mus musculus with 6 samples.

Results

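The Chd genes encode chromodomain helicase DNA-binding proteins, and 8 of them, Chd1, Chd2, Chd3, Chd4, Chd6, Chd7, Chd8 and Chd9, were followed here in mouse multipotent progenitors with and without latexin (Lxn). They were found by gene symbol in the platform's probe-to-gene table and are 8 of 19938 genes with a feature of their own on the array. A feature is a probe set with 1 value per array, and the 8 genes held 38 of the 23410 features tested. Chd7 carried 30 of them, Chd6 carried 2, and each of the other genes carried 1. The genes were chosen by name, after the log2 changes of this comparison were known, so the values below are a description.

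RNA came from bone marrow cells that were lineage-negative, positive for Sca-1, c-Kit and CD34, and positive for a receptor spelled Flt2 in the series text. Cells of wild-type (WT) C57BL/6 mice with intact latexin were compared with cells of Lxn-/- mice, also C57BL/6, whose latexin gene lacks exons 2 to 4 and which lack the protein, an inhibitor of carboxypeptidases. Each group had 3 whole-transcript arrays, each from a pool of 10 to 20 mice of 8 to 12 weeks, all labelled female. The labels name no Cre or tissue restriction for the deletion. Fewer cells of a type and less RNA per cell cannot be told apart in pooled cells. The question was how loss of latexin alters expression in these cells.

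CHD proteins use ATP to slide, space or evict nucleosomes, through a motor domain shared with the SNF2 family, and carry paired chromodomains that bind histones or DNA. Chd1 and Chd2 work with transcribing RNA polymerase II, Chd3 and Chd4 are the alternative motors of the NuRD repressor complex, and Chd6 to Chd9 form a further subfamily. In blood formation Chd4 is known to be needed for stem cell maintenance, and Chd7 is known to bind the transcription factor Runx1.

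The array labels need care before any value is read. Lxn itself was 8.56, 8.70 and 8.58 in WT and 8.03, 8.53 and 8.61 in arrays 1, 2 and 3 labelled Lxn-/- (log2 values). It thus does not check the genotype, and which exons its probes cover was not analysed here. Arrays 1 and 3 labelled Lxn-/- carried Y-linked RNA, with Uty at 8.55 and 9.43 against 4.63 in array 2 and 4.53 to 5.15 in WT, although every donor is labelled female. The X-linked gene Xist read only 6.86 and 5.85 on the same arrays, whereas array 2 had 13.17 and WT ranged from 13.13 to 13.23. Both arrays thus differed from WT in sex-linked RNA as well as in the genotype label. Array 1 labelled Lxn-/- also had the lowest mean over the sort-gate genes Kit, Flt3 and Cd34 (12.42, against 12.74 to 12.75 in WT and 12.75 to 12.82 in the other two). Over 5 mast cell and basophil genes the array mean was 9.23 to 9.45 in WT and 8.06 to 9.11 in Lxn-/-, with array 1 the lowest. Over 5 monocyte and macrophage genes it was 8.27 to 8.56 in WT and 8.64 to 8.66 in Lxn-/-, but these genes went both ways. Ccr2, Csf1r and Cd68 were higher in Lxn-/- (log2 changes 0.75, 0.50 and 0.32), and C1qa and Adgre1 were lower (-0.27 and -0.23). Erythroid genes ran from 8.10 to 8.45 in WT and 8.05 to 8.09 in Lxn-/-, and long-term stem cell genes from 8.18 to 8.41 and from 7.82 to 8.21. Of the erythroid genes Tfrc was higher in Lxn-/- (0.49) and 4 were lower. The part of these differences in the Chd values was not tested.

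No Chd feature was called. In limma, with p-values adjusted by Benjamini-Hochberg across the whole table, 0 of 38 had an adjusted p under 0.05, where 0% of all features did, and the smallest adjusted p among the 38 was 0.340. At an unadjusted p under 0.05 there were 6 Chd features, 5 higher and 1 lower in Lxn-/-, all of them of Chd7, where 14.3% of all features reached it (5.06% higher and 9.23% lower). The groups did not overlap in 4 Chd features that were higher in Lxn-/- and 1 that was lower, again all of Chd7, where 8.54% and 13% of all features did so, 21.6% together. Since the family was chosen with this contrast known, nothing is read from these counts.

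Chd4, the NuRD motor, was the steadiest member. It was 11.68, 11.71 and 11.68 in WT and 11.64, 11.76 and 11.70 in Lxn-/- arrays 1, 2 and 3, so the groups overlapped. The change, Lxn-/- minus WT, was 0.013 on the log2 scale (standard error, SE, 0.082). Chd8, which is known to bind beta-catenin and the WRAD core of histone methyltransferases, varied nearly as little. Its values were 10.12, 10.09 and 10.00 in WT and 10.01, 10.13 and 10.16 in Lxn-/-, a change of 0.030 (SE 0.087). Both are much smaller than their errors, and both turned negative when the arrays were quantile-normalized again (-0.087 and -0.051).

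Chd3, the other NuRD motor, was 10.10, 10.27 and 10.09 in WT and 9.98, 10.16 and 10.42 in Lxn-/- arrays 1, 2 and 3. The mean hardly moved (0.036, SE 0.12), while 1 Lxn-/- array lay below every WT value and 1 above. Chd2, which resembles Chd1 and acts at transcribed genes, showed the same spread. It was 9.62, 9.58 and 9.53 in WT and 9.34, 9.65 and 9.87 in Lxn-/-, with SDs of 0.045 and 0.27 around means of 9.57 and 9.62. Its change was 0.044 (SE 0.13), 0.19 without Lxn-/- array 1 and -0.082 without array 3.

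Chd9, a coactivator of nuclear receptors, had the same arrays low and high. It was 10.61, 10.74 and 10.63 in WT and 10.46, 10.67 and 10.75 in Lxn-/- (change -0.030, SE 0.10), and it turned to 0.053 without Lxn-/- array 1. Chd6, a relative of Chd7 and Chd8, had 2 features that gave different answers. On feature 10489266 it was 10.07, 9.99 and 10.16 in WT and 9.75, 10.13 and 10.16 in Lxn-/-, where array 1 alone was low (change -0.057, SE 0.12). On feature 10578189 it was 8.17, 8.04 and 8.25 in WT and 8.15, 8.44 and 8.63 in Lxn-/-, where arrays 2 and 3 lay above every WT array and array 1 lay among them. That change was 0.26 (SE 0.13), or 0.38 without Lxn-/- array 1, and it was not called. Which part of the gene each feature reads was not analysed here.

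Chd1, which binds histone marks of active promoters, behaved otherwise. It was 10.08, 9.98 and 10.01 in WT and 10.23, 9.99 and 10.26 in Lxn-/- arrays 1, 2 and 3. Arrays 1 and 3, those with Y-linked RNA, lay above WT, and array 2 lay among the WT values. The change was 0.14 (SE 0.099), 0.22 without array 2, and -0.027 for array 2 alone against WT.

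**Figure D1:**
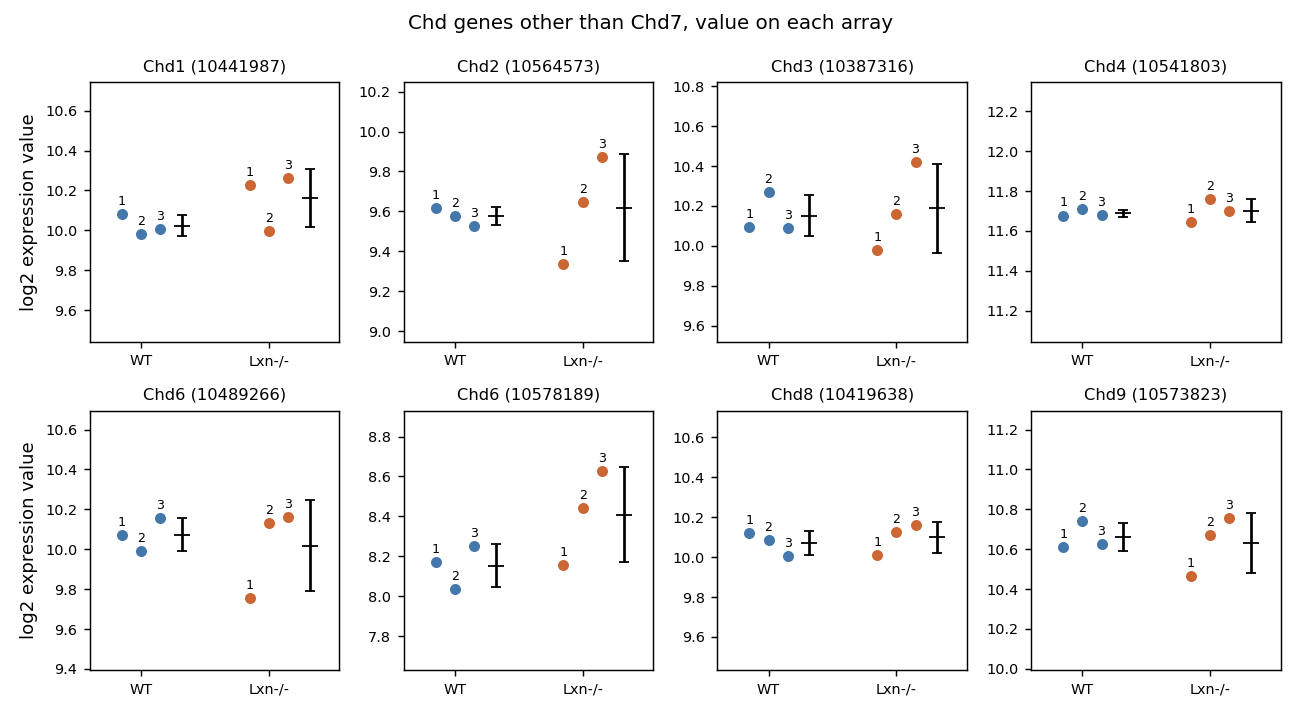
Log2 expression value of the 8 features of Chd1, Chd2, Chd3, Chd4, Chd6, Chd8 and Chd9 on each array, with dots numbered by replicate and the mean with SD in black; each vertical axis spans the same number of log2 units. In Chd2, Chd3 and Chd9 the Lxn-/- dots spread wider than the WT dots around nearly equal means, Chd4 is tight in both groups, and in Chd1 arrays 1 and 3 lie above WT.

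In these 7 genes the spread differed between the groups. The SD was larger in Lxn-/- than in WT in all 8 of their features, at 0.019 to 0.11 in WT and 0.058 to 0.27 in Lxn-/-, while 58.1% of all tested features had the larger SD in Lxn-/-. This did not extend to Chd7, where 9 of 30 features had the larger SD in Lxn-/-. Among the Lxn-/- arrays, array 1 was lowest and array 3 highest in 6 of the 8 features, an order found in 14.7% of all tested features. The 8 features share the same 6 arrays and are not independent, and they were not tested as a set. Without array 1 all 8 features had a higher mean in Lxn-/-, with a median of 0.090. Without array 3 only 3 did, with a median of -0.041, and after renewed quantile normalization 2 did (median -0.049), against 6 (median 0.033) in the values as deposited. After centring each array on its median 7 did (median 0.090). Chd1 and Chd6 feature 10578189 stayed positive with each array left out (0.089 to 0.22 and 0.15 to 0.38) and after renewed quantile normalization (0.059 and 0.24), and Chd1 turned negative for array 2 alone. The other 6 features changed sign in at least 1 of these settings.

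Over the 28 pairs of the family, Pearson's r across the 6 arrays ran from -0.55 (Chd4 with Chd7) to 0.91 (Chd3 with Chd9). Each gene entered by 1 feature, its brightest. For Chd7 this was 10503170, with a change of -0.13, while the mean of its 30 features changed by 0.12. No r was computed for the other Chd7 features. Chd2 had r of 0.88 with Chd3, 0.87 with Chd8, 0.84 with Chd9 and 0.79 with Chd6, and Chd4 had 0.58 with Chd6 and 0.66 with Chd9. Chd1 had r between -0.52 and 0.15 with every other member. Each r rests on 6 arrays that share 1 normalization, and no p is given. Promoter sequence was held for 4 of the 8 genes in the RefSeq table (GRCm38.p6), and it is shown for Chd6, whose features differed, and for Chd4, the steadiest member, which were positively correlated. Each run is the 250 bases before the start, 5′ to 3′ on the gene's strand. Capitals mark GGGCGG, the GC box, and CCAAT, both searched on either strand, and these motifs do not overlap each other here.
Chd6: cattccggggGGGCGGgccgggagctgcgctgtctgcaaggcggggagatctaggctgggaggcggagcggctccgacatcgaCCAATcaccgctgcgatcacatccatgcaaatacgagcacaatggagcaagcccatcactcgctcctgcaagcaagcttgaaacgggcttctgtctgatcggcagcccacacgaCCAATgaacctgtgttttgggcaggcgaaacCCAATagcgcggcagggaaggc
Chd4: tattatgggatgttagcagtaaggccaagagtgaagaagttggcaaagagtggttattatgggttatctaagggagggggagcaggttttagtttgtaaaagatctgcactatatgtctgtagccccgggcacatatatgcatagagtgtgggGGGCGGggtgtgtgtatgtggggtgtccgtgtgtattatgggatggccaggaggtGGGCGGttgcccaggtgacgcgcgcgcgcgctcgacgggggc
The Chd6 window is chr2:161109087-161109336 on the minus strand and the Chd4 window chr6:125095731-125095980 on the plus strand. The Chd6 window held 3 CCAAT matches and 1 GGGCGG, and the Chd4 window 0 and 2. Of all 32851 promoter windows of this length in the table, 33.8% held CCAAT and 32.7% GGGCGG. These matches describe the letters only, and the array data hold no measurement of binding there.

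Chd7, the gene mutated in CHARGE syndrome, gave the widest range of answers. Its 30 features had changes from -0.24 to 0.66, with 21 higher and 9 lower in Lxn-/- and a median of 0.058, while the median over all tested features was -0.038. After renewed quantile normalization 23 were higher, with a median of 0.17 against -0.0091 over all tested features. After centring each array on its median 24 were higher, with a median of 0.11 against 0.019. The median Chd7 value per array was 6.95, 7.19 and 6.79 in WT and 7.18, 7.10 and 7.21 in Lxn-/- arrays 1, 2 and 3. WT array 2 thus sat with the Lxn-/- arrays, and it was the highest of the 3 WT arrays in 25 of 30 features. Without it 27 features were higher in Lxn-/-, with a median of 0.17, and without WT array 3 only 16 were, with a median of 0.030. The features all read the same gene and are not replicates of one another.

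**Figure D2:**
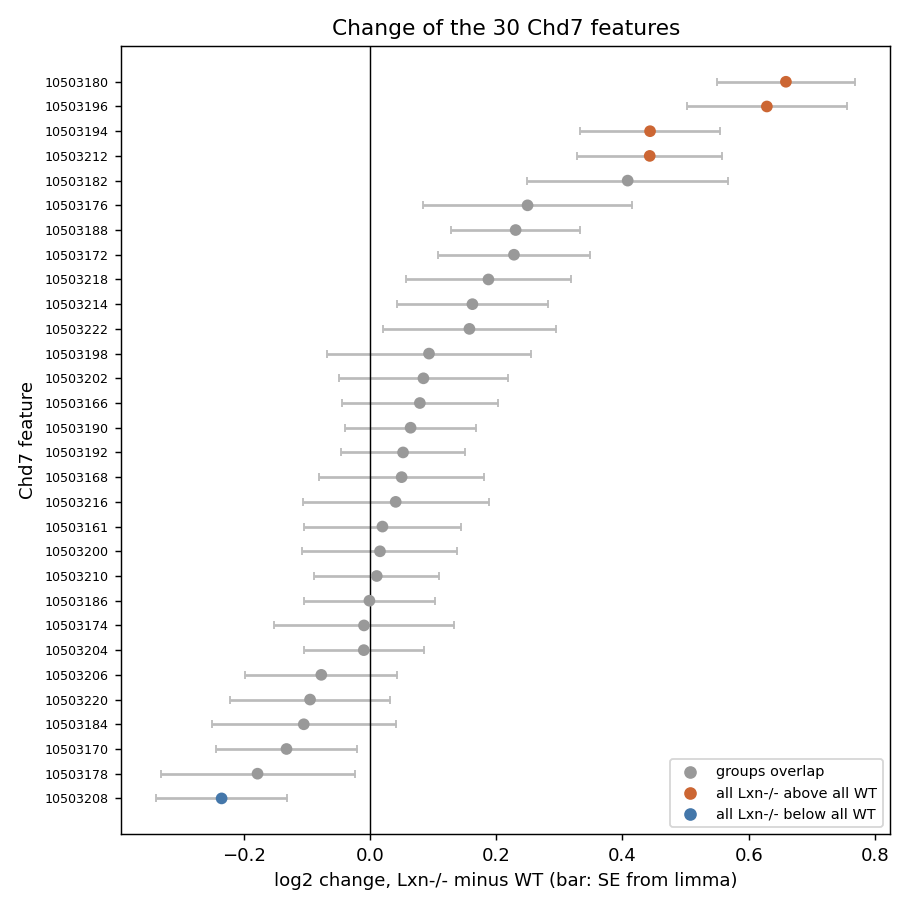
Log2 change (Lxn-/- minus WT, 3 arrays each) of each of the 30 Chd7 features, ordered by size, with bars of 1 SE from limma. The changes run from -0.24 to 0.66, and the 4 orange features at the top and the 1 blue feature at the bottom are those whose groups did not overlap.

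A few Chd7 features had changes, not levels, well above the rest of the gene. Feature 10503180 was 6.19, 6.17 and 6.15 in WT and 6.93, 6.60 and 6.95 in Lxn-/-, with every Lxn-/- array above every WT array. Its change was 0.66 (SE 0.11), and its adjusted p of 0.340 in limma did not pass. Feature 10503196 was 6.52, 6.76 and 6.48 in WT and 7.38, 6.98 and 7.28 in Lxn-/-, a change of 0.63 (SE 0.13). Here too the groups did not overlap, and array 2, without Y-linked RNA, was the lowest of the Lxn-/- arrays in both features. Without array 2 these were the only Chd features called, at 0.77 (limma adjusted p 0.0049) and 0.75 (0.020), in a fit that called 145 of all features (0.619%). Array 2 alone lay 0.43 and 0.40 above the WT mean.

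Features 10503194 and 10503212 also separated the groups. The former was 6.52, 6.51 and 6.69 in WT and 6.99, 6.86 and 7.20 in Lxn-/- (change 0.44, SE 0.11). The latter was 5.69, 5.57 and 5.60 in WT and 5.91, 5.98 and 6.30 in Lxn-/- (change 0.44, SE 0.12). In both, array 3 was the highest. Feature 10503182 changed by a similar amount (0.41, SE 0.16), but its groups overlapped, with WT array 2 at 7.37 above Lxn-/- array 2 at 7.31.

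Feature 10503208 went the other way. It was 6.73, 7.01 and 6.78 in WT and 6.58, 6.71 and 6.53 in Lxn-/-, a change of -0.24 (SE 0.10) without overlap, though WT array 1 and Lxn-/- array 2 nearly met. The brightest Chd7 feature, 10503170, which stands for the gene where 1 feature per gene is used, was at -0.13 (SE 0.11). The next brightest, 10503210, 10503204 and 10503190, were at 0.011, -0.0099 and 0.064. The mean of all 30 features was at 0.12, with array means of 6.91, 7.15 and 6.85 in WT and 7.11, 7.01 and 7.15 in Lxn-/-. The sign for Chd7 thus depended on which features stood for it. The position of the features in the gene was not analysed here.

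**Figure D3:**
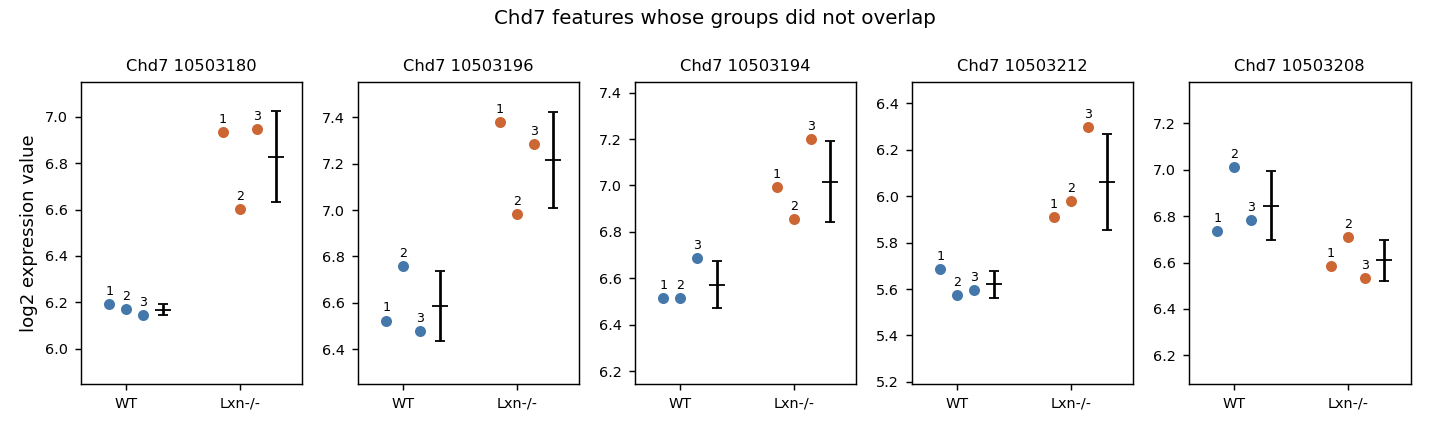
Log2 expression value on each array for the 5 Chd7 features whose groups did not overlap, with dots numbered by replicate and the mean with SD in black. In features 10503180, 10503196, 10503194 and 10503212 all Lxn-/- dots lie above all WT dots, and in feature 10503208 they lie below.

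To see unequal change within the gene, the median of all Chd7 features on each array was subtracted. Features 10503180 and 10503196 kept relative changes of 0.47 and 0.44 with no overlap. Feature 10503182 had 0.22, also with no overlap on this scale, though WT array 1 (0.20) and Lxn-/- array 2 (0.21) nearly met. The subtracted median was higher on average in Lxn-/-, which by construction lowers every relative change, so no count of relatively lower features is read. Features 10503194 and 10503212, at 0.25 each, overlapped on this scale. In WT the 4 features that were higher without overlap as deposited all lay below the Chd7 median. Their mean relative values in WT were -0.81 (10503180), -0.39 (10503196), -0.40 (10503194) and -1.36 (10503212). Feature 10503182 lay above that median in WT (0.13). Of the 24 genes with at least 10 features on the array, Chd7 had the third-largest SD of log2 changes over its features, at 0.22, after Trdn (0.30) and Cspp1 (0.23), and the median of the others was 0.12. Between 21 and 26 of the 30 Chd7 features lay below the median of all tested features on each array.

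Of the CHD relatives outside the 8 genes, Chd1l, a remodeler recruited to DNA damage, was 9.08, 8.87 and 9.02 in WT and 9.14, 9.18 and 9.24 in Lxn-/- (change 0.20, SE 0.092). Chd5, a mainly neuronal and testis NuRD motor, was 7.11, 7.37 and 7.18 in WT and 7.10, 7.03 and 6.99 in Lxn-/- (change -0.18, SE 0.097). Neither pair of groups overlapped, and neither gene was called.

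Partner subunits and other remodelers were compared with the family as lists. Over 103 measured genes in 6 lists none was called in limma, and 6 (5.83%) had an unadjusted p under 0.05, against 14.3% of all features. The mean was higher in Lxn-/- in 75.7% of them, with a median log2 change of 0.072, while 42.2% of all tested features were higher and the median over all genes was -0.043. After renewed quantile normalization the share was 43.7% and the median -0.011, where 47.1% of all tested features were higher. After centring each array on its median the share was 90.3% and the median 0.13, where 53.7% of all tested features were higher. Centring adds the same 0.057 to every change, also in the lists below. The 8 Chd genes, at 1 feature each, had 5 higher and 3 lower means and a median of 0.021. Chd7 and Chd6 count as lower there by their brightest features. The mean of the 30 Chd7 features (0.12) and Chd6 feature 10578189 (0.26) were higher. After renewed quantile normalization 1 Chd gene was higher and 7 were lower (median -0.069), and the all-gene median was -0.010. After centring 6 were higher and 2 lower (median 0.078), and the all-gene median was 0.014.

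The NuRD partners of Chd3 and Chd4 were higher in 11 of 12 genes (median 0.11), but in only 6 of 12 after renewed quantile normalization (median 0.013). Hdac2, a histone deacetylase of the complex, was 10.63, 10.12 and 10.56 in WT and 10.79, 10.64 and 10.76 in Lxn-/- (change 0.29, SE 0.14), and the low WT array 2 widened the gap. Hdac1, its partner enzyme, was at 0.038 (SE 0.083), and Mbd3, the methyl-binding-domain subunit, at 0.13 (SE 0.084).

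Among ISWI genes 8 of 11 were higher (median 0.075, turning to -0.0030 after renewed quantile normalization). The motor Smarca5 was 10.32, 9.68 and 10.23 in WT and 10.51, 10.23 and 10.71 in Lxn-/- (change 0.41, SE 0.18), again with a low WT array 2. Its partner Baz1a was at 0.22 (SE 0.11) and the alternative motor Smarca1 at -0.20 (SE 0.12). In SWI/SNF 17 of 27 subunits were higher (median 0.030, or -0.039 after renewed quantile normalization). The motors Smarca4 and Smarca2 were at 0.075 (SE 0.083) and -0.047 (SE 0.099), Brd7 of the PBAF form at 0.27 (SE 0.11), and the reader subunit Dpf3 at -0.26 (SE 0.089).

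INO80, SRCAP and TIP60 genes were higher in 24 of 28 (median 0.076, or -0.0074 after renewed quantile normalization). The shared AAA ATPase Ruvbl1 was at 0.21 (SE 0.095), Actr6 of the SRCAP complex at 0.21 (SE 0.094), and the motors Ino80, Ep400 and Srcap at 0.073, 0.11 and -0.0058. Of the WRAD and MLL-type genes 6 of 10 were higher (median 0.013, or -0.063 after renewed quantile normalization), with the WRAD subunits Ash2l at 0.18 (SE 0.088) and Dpy30 at 0.27 (SE 0.15). Dpy30 was low in WT array 2, at 10.20 against 10.58 and 10.66 in WT arrays 1 and 3. The methyltransferases of the WRAD and MLL-type list, picked after their values were seen, ran from -0.11 (Kmt2a) to 0.13 (Setd1a). Other SNF2-type ATPases had the largest median of the 6 lists (0.16, 12 of 15 higher), and it kept its sign after renewed quantile normalization (0.099, 10 of 15). Rad54l, of homologous recombination, was at 0.29 (SE 0.087), and Hells, which supports DNA methylation, at 0.47 (SE 0.15). For Hells too WT array 2 was low, at 8.98 against 9.56 and 9.44 in WT arrays 1 and 3. Btaf1 and Ttf2, which act in transcription and were picked after their values were seen, were at 0.25 and 0.21.

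**Figure D4:**
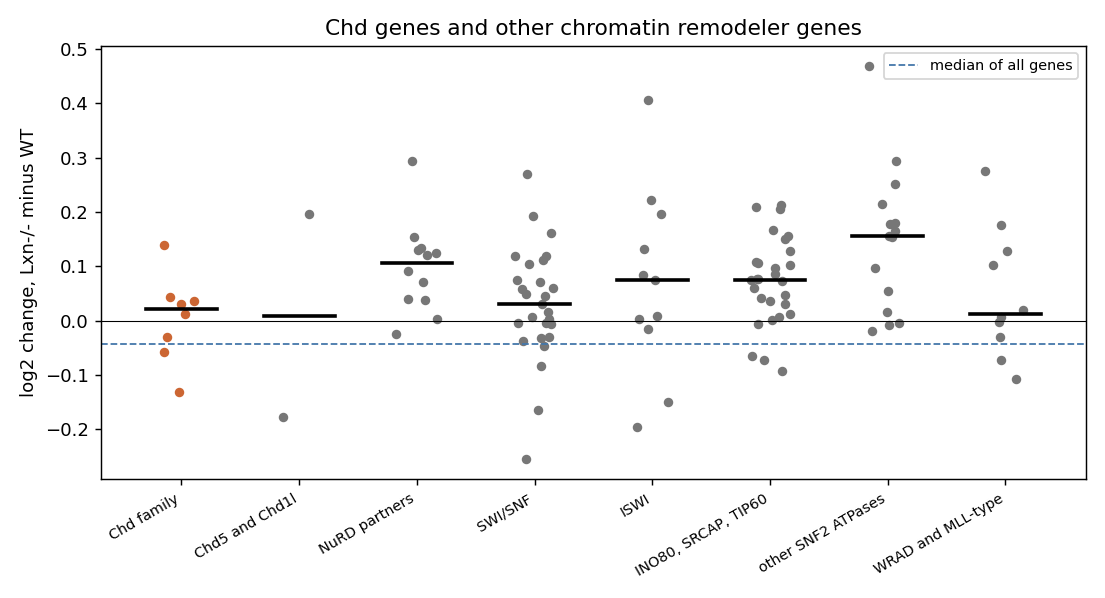
Log2 change (Lxn-/- minus WT) of single genes, 1 feature each, for the 8 Chd genes (orange) and 7 lists of related or other remodeler genes (grey), with list medians as black bars and the median of all genes as a dashed line. The Chd genes lie between -0.13 (Chd7, by its brightest feature) and 0.14, and the other SNF2-type ATPases have the highest list median, 0.16.

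The genes whose values ran most like each member were sought among 4032 genes whose range over the 6 arrays was at least 0.5. For Chd1 they were Tpm4, Zbtb11 and Utp18 (Pearson's r 0.998, 0.995 and 0.978), for Chd2 Ypel2, Sla and Armcx3 (0.987, 0.985 and 0.979), and for Chd3 Fam227a, Clec4a2 and Tmem203 (0.991, 0.984 and 0.978). Chd4 ran most like Serpinb10, Slc17a5 and Atad3aos (0.985, 0.982 and 0.979), and Chd6 like Ing4, Hbp1 and Tmem18 (0.994, 0.981 and 0.981). The brightest Chd7 feature ran most like Cd83, Tas2r130 and Ceacam3 (0.986, 0.982 and 0.976), Chd8 like Ugcg, Idh1 and Plekhm3 (0.968, 0.958 and 0.954), and Chd9 like Slc26a11, Stard8 and Sgms1 (0.995, 0.994 and 0.992). Tpm4 shows what such a match looks like, at 10.44, 10.20 and 10.25 in WT and 10.88, 10.21 and 11.02 in Lxn-/-, high in arrays 1 and 3 as Chd1 was. With 6 arrays and this many candidates, values of r this high are easily reached, and they are given without a p.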

How the data were processed

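Total RNA, 100 ng per sample, was labelled for MoGene 1.0 ST arrays from Affymetrix, per the labels' protocols and the series text. The values deposited by the authors are log2 expression after RMA, per the series text, and the submitters' processing notes list Partek 6.0. The log2 scale was inferred from the values (2.65 to 14.78). Neither RMA settings nor a genome build is given in the sources used here.

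Gene symbols came from the platform's annotation and were updated by Entrez identifier. The 23410 features with at least 1 symbol were fitted with limma 3.58.1 in R 4.3.3 (lmFit, eBayes, two-sided), with Benjamini-Hochberg adjustment and a threshold of 0.05. In simulated arrays of this comparison (23410 features) the fit recovered 83% of 200 features changed 2-fold, with 4.05% false calls. Changes below 2-fold, as all Chd changes here were, were not simulated, nor were differences of sex between arrays. The number of arrays, 3 per group, limits the precision. Where 1 feature stands for a gene, it is the one with the highest mean.

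The members and lists were chosen with earlier results of these data known. All member features were open to naming. Of each list, the 2 genes with the largest moderated statistics are named, with Hdac1, Hdac2, Smarca1, Smarca2, Smarca4, Smarca5, Ino80, Srcap and Ep400, and 3 genes per member by correlation. Ino80e and 8 marker genes, Ly6a among them, had no feature of their own. The alternatives were a replicate block, each array left out, arrays 1 and 3 labelled Lxn-/- left out together, renewed quantile normalization, centring, a level filter, all rows, eBayes with robust and trend options, array weights and the mean of a gene's features. Centring within Chd7 was added after seeing the data.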

Additional observations from a re-analysis of the deposited data

How the results depend on the processing

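The count of Chd features called stayed at 0 of 38 with renewed quantile normalization, centring, array weights, trend and robust settings, all rows of the table and arrays 1 and 3 labelled Lxn-/- left out together. It was also 0 of 14 among the Chd features above the median level. Leaving out 1 array at a time gave 0 to 2. The 2 came without Lxn-/- array 2 and were Chd7 features, with 145 called in the whole table. Fewer samples enter that fit, and both Lxn-/- arrays left in it carried Y-linked RNA. Genotype label and sex-linked RNA cannot be told apart there, and the cause was not tested. With the replicate number as a block it was 0, and 1 feature was called in the whole table. Same-numbered arrays did not deviate together over the whole table (correlations 0.076, -0.0076 and -0.0057), which gives no sign of a pairing. A pairing that touches few features would not show in such a check. No gene of the remodeler lists was called under any of these settings. Of the 38 changes, 8 turned sign with renewed quantile normalization, 4 with centring, 6 with array weights and 4 to 7 with 1 array left out. With arrays 1 and 3 left out together 13 did. None of those had been called. The 4 Chd7 features that were higher without overlap stayed positive with renewed quantile normalization. It raised each of them, to 0.79 (10503180), 0.75 (10503196), 0.56 (10503194) and 0.57 (10503212). The median of all 30 Chd7 features rose with it too, from 0.058 to 0.17. Centring adds the same amount to every change, so it could not turn a positive sign. Leaving arrays out, blocking or weighting could not turn their sign, because every Lxn-/- array lay above every WT array. Those settings and centring are thus no check of these features. Most Chd7 features were dim, which may limit what they can show.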
